A study of Homo sapiens with 79 samples.

Results

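The outer segment of a photoreceptor is a modified cilium packed with membrane discs, and it holds the proteins that turn light into an electrical signal. Its discs are shaped by rim proteins, its axoneme is held by microtubule-binding proteins, its enzymes need chaperones and carriers to reach it, and the matrix around it is secreted. Mutations in many of these genes cause inherited retinal dystrophies in which rods, cones or both are lost. The 10 genes described here serve these functions in rods and in cones. They were taken by symbol from a list of disc, trafficking, matrix and calcium genes, and all 10 were present among the 24414 genes of the count table.

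The cells came from retinal organoids grown from a human embryonic stem cell line (H9) that carries a CRX-GFP reporter, that is, a green fluorescent protein placed under the control of the photoreceptor gene CRX. Y27632, a kinase inhibitor, was given at the start of differentiation, and serum, T3, taurine and retinoic acid were added to every culture later on, so that all groups share the line and the medium and the line is a single one. Organoids were dissociated at day 60, day 90 and day 200 and single cells were captured on Fluidigm C1 chips. Of 1976 cells in all, 661 were of day 90, 356 of chip a and 381 of chip b of day 200, in 20 chip columns each, and the remaining cells were of day 60, in 19 columns. Summed reads ranged from 89204989 to 115731787 per chip, and the median cell held 160343 to 251929 reads, deepest on chip a.

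Day 60 and day 90 have 1 chip each, and nothing says that columns came from separate cultures, so no test was made between time points. Per the study's methods, day 90 was run first, with more control RNA added to the cells. Its cells were kept up to a higher share of that RNA, and day 60 had a lower cutoff of reads per cell. Effects of these differences cannot be told apart from those of the time points. The 2 chips of day 200 are the only repeat and are given side by side throughout. Levels are read counts scaled to a common library size (CPM) and summed over the cells named, with exact Poisson 95% intervals that hold for counting error alone, because the libraries carry no molecular identifiers and several reads can stem from 1 molecule. Unless said otherwise, shares of cells are given after thinning each cell to 50000 reads, with exact binomial 95% intervals.

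Clusters were rebuilt with the 10 genes left out of the clustered genes, so that none of them shaped a class. A cone-like cluster of 218 cells carried all 9 of its cone markers, a rod-like cluster of 57 cells carried 7 of 10 measured rod markers beside 6 cone markers, and 122 cells carried all 8 markers of photoreceptor and bipolar precursors. The rod-like cells numbered 0 at day 60, 20 at day 90 and, on the chips of day 200, 26 (a) and 11 (b), and the cone-like cells 37, 96, 57 and 28. These 3 classes are called photoreceptor-like below. A cluster of 344 cells led by the stress genes GDF15 and TRIB3 stayed unnamed, and all remaining cells are called other classes together with it.

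RefSeq promoters (GRCh38.p14) were at hand for 7 of the 10 genes, namely ROM1, PRPH2, MPP4, RD3, TULP1, UNC119 and IMPG1. The 250 bases before the start of each were searched on both strands for TAATC, the core that CRX and OTX2, homeodomain factors of photoreceptors, are known to bind, and for the longer TAATCC, which contains it. PRPH2, MPP4, TULP1 and IMPG1 held the shorter word, 4 of 7 genes, against 17.9% of all 35114 promoters and 13.7% of the 18305 promoters of genes in the count table. The longer word stood in MPP4 only, against 4.55% of the latter. A match is a description of letters and not a site.

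The promoters of PRPH2, MPP4 and TULP1 are shown because the first was almost silent at day 60 and the other 2 were already read in cone-like cells at that time. Each is written 5′ to 3′ on the minus strand, on which the genes lie, with TAATC in capitals, spelled GATTA where it lies on the opposite strand. For MPP4 the last bases before the RefSeq start are left out, since the GENCODE gene already begins there. In PRPH2 the matches begin 61 and 30 bases before the start, in MPP4 250 and 73 bases, and in TULP1 248 and 29 bases.

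PRPH2, chr6:42722598-42722847: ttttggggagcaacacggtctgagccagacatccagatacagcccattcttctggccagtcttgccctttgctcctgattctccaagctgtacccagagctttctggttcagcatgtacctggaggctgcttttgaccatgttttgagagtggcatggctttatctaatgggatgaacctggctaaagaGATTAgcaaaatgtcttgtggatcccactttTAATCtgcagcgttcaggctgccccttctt
MPP4, chr2:201698695-201698894: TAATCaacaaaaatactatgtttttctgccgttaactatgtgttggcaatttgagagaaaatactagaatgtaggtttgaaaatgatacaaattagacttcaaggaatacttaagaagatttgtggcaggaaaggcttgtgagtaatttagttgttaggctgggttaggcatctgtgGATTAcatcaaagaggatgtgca
TULP1, chr6:35512897-35513146: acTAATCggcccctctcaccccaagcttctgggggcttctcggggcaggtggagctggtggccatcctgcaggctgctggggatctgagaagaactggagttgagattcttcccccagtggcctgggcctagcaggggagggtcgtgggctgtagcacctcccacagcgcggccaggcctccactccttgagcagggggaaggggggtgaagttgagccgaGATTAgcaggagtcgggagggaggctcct

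At day 90 nearly all of the group stood higher than at day 60. The count of genes at least 4 times higher at day 90 was 9 of 10, all except UNC119, and 8 of the 9 that had a mean level of at least 5 CPM, where 3.42% of 12365 genes with that mean were. The median fold over the 10 genes was 8.45, against 1.01 over all those genes. IMPG1, with a mean of 3.37 CPM, was the only one of the 10 below that minimum. In sums over all cells, fewer cells of a type and less RNA per cell cannot be told apart. Photoreceptor-like cells made up 8.82% of cells at day 60, 24.8% at day 90, and 31.5% of chip a but 18.4% of chip b at day 200.

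From day 60 to day 200 the picture was less uniform. RP1, ROM1, PRPH2, AIPL1, RD3 and RCVRN, 6 of the 10, were at least 4 times higher on both chips, against 2.78% of all genes, and the median fold of pooled day 200 over day 60 was 13.5 against 1.08. AIPL1 passed narrowly on chip b, at 4.08 times day 60, and the count was 5 with median-ratio size factors, without called doublets, with deeper cells alone or with equal numbers of cells per day. From day 90 to day 200 none of the 10 was at least 2 times higher on both chips, where 3.23% of all genes were.

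**Figure D1:**
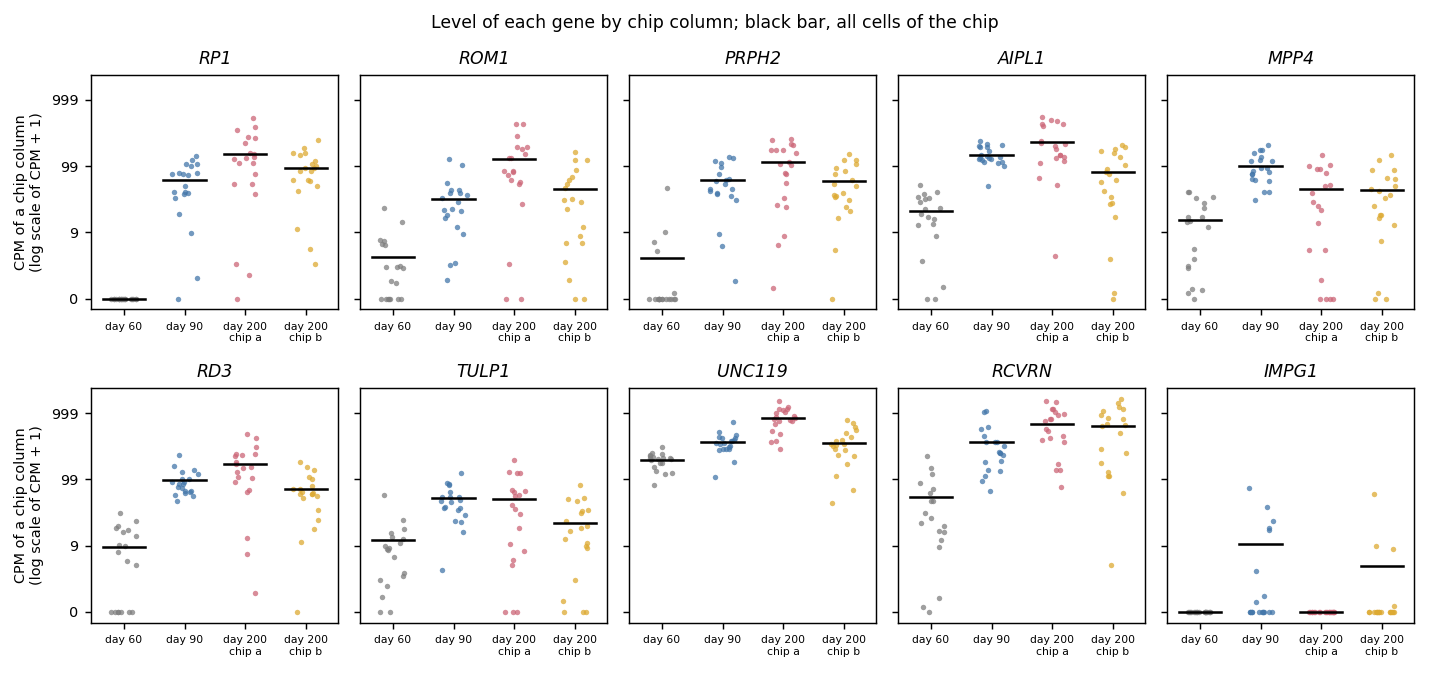
Each point is 1 chip column (19 at day 60, 20 on each other chip), its height the CPM of the gene over the cells of that column on a log scale of CPM + 1, and the black bar is the CPM over all cells of the chip. RP1 and IMPG1 lie at 0 in every day 60 column, while UNC119 lies between 82.1 and 311 CPM there.

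Summed over all cells, the axoneme and disc genes stood low at day 60, at 0 CPM for RP1, 3.15 for PRPH2 and 3.26 for ROM1. ROM1 was still read in 12 of 19 columns, as many as RD3. RP1 (chr8:54509422-54871720, plus strand), a microtubule-binding protein of the outer segment axoneme, had no read in any cell at day 60, where 3 reads would have been 0.0286 CPM. At day 90 it reached 60.9 CPM (59.5 to 62.3), with columns from 0 to 141 and a median of 61.1. Chip a gave 151 CPM (columns 0 to 528, median 128) and chip b 92.8 CPM (columns 2.29 to 249, median 88.7). With the day 60 level set to 3 reads, day 90 was 2130.5-fold higher, chip a 5272-fold and chip b 3247-fold. These folds rest on that setting and are not lower bounds. The upper end of the Poisson interval at day 60 was 0.03515 CPM, above the 0.0286 CPM of 3 reads. The columns of the later chips overlapped with one another widely, and the 0 of day 60 was shared by 1 column of day 90 and 1 of chip a.

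PRPH2 (chr6:42696598-42722597, minus strand) and ROM1 (chr11:62611722-62615116, plus strand) encode tetraspanins that pair at the disc rim. PRPH2 was read in 8 cells at day 60, at 3.15 CPM, and 68.8% of those reads came from 1 cell of the RGC-like class. Without that cell the level was 0.984 CPM. It reached 60.6 CPM at day 90 (columns 0.841 to 137, median 48.9), 113 CPM on chip a (columns 0.433 to 254, median 104) and 57.8 CPM on chip b (columns 0 to 151, median 43.5). The fold of pooled day 200 over day 60 was 27.6, and 78.98 when the highest cell of each chip was left out.

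ROM1 stood at 3.26 CPM at day 60 and at 31.3 CPM at day 90. At day 200 it reached 129 CPM (chip a) and 43.98 CPM (chip b). Its column medians were 1.87, 24.7, 84.2 and 29.04 CPM in the same order, and columns without a read occurred at day 60 and on both chips of day 200. Of its annotated exon bases, 30.1% are shared with EML3 on the opposite strand, and no strand setting is stated for the counting, so that reads of the pair cannot be separated there.

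The cargo and scaffold genes stood higher at day 60, at 8.47 CPM for RD3 and more for the others. AIPL1 (chr17:6393693-6435199, minus strand), a chaperone of the phototransduction phosphodiesterase, went from 20.0 CPM at day 60 (columns 0 to 50.6, median 17.7) to 146 CPM at day 90 (columns 48.7 to 239, median 133). Chip a held 235 CPM (columns 3.45 to 561) and chip b 81.6 CPM (columns 0 to 207). Chip b lay below day 90, and chip a above it.

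RD3 (chr1:211476522-211492162, minus strand), which restrains guanylate cyclase and helps its transport, followed the same course. It measured 8.47 CPM at day 60, 96.4 CPM at day 90, with 172 CPM for chip a and 69.9 for chip b at day 200. Day 60 columns ended at 30.2 CPM and day 90 columns began at 46.7, so that these groups of columns did not overlap. Its partners GUCY2D and GUCY2F, the guanylate cyclases, were near 0 on every chip, with at most 0.518 CPM for GUCY2D at day 90 and 0.337 CPM for GUCY2F.

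TULP1 (chr6:35497874-35512896, minus strand), a tubby-family protein needed for transport into the outer segment, measured 11.1 CPM at day 60, 51.4 CPM at day 90, 49.6 CPM for chip a and 21.3 CPM for chip b. Chip a was level with day 90 while chip b was at 0.415 times day 90. MPP4 (chr2:201644870-201698694, minus strand), a scaffold of the guanylate kinase family found at photoreceptor synapses, peaked at day 90. It went from 14.5 CPM at day 60 to 98.1 CPM at day 90 and came back to 44.6 CPM (chip a) and 43.3 CPM (chip b), 0.454 and 0.441 times day 90. The columns of MPP4 overlapped in all 4 groups, with medians of 13.5, 87.4, 25.9 and 34.2 CPM.

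UNC119 (chr17:28546708-28552631, minus strand), a carrier of lipid-modified proteins such as transducin, was the most widely read of the 10. It stood at 194 CPM at day 60 (columns 82.1 to 311), 370 CPM at day 90 (columns 110 to 745), 841 CPM on chip a (columns 284 to 1513) and 359 CPM on chip b (columns 42.8 to 797). RCVRN (chr17:9896320-9905271, minus strand), the calcium sensor recoverin, went from 53.5 CPM at day 60 (columns 0 to 227, median 24.8) to 368 CPM at day 90 (columns 65.02 to 1084, median 256). On chip a it measured 684 CPM and on chip b 641 CPM, with column medians of 660 and 663. In sums over all cells, RCVRN and MPP4 were the genes on which the day 200 chips lay closest. Within cone-like cells they did not lie close, with 1594 (a) against 3671 CPM (b) for RCVRN and 150 against 355 CPM for MPP4.

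IMPG1 (chr6:75921114-76072678, minus strand), a proteoglycan of the matrix around photoreceptors, was rare. It had no read at day 60 and none on chip a, where 3 reads would have been 0.0286 and 0.0310 CPM. At day 90, 27 cells gave 9.45 CPM, with reads in 8 of 20 columns. On chip b 5 cells gave 4.01 CPM, but 72.6% of these reads came from 1 cell, and 1.10 CPM was left without it. That cell lay outside the photoreceptor-like classes, which held 8.66% of the IMPG1 reads of chip b. Its relative IMPG2 was read throughout, from 44.6 CPM at day 60 to 176 CPM at day 200.

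The day 200 chips differed in level. ROM1, AIPL1, RD3, TULP1 and UNC119, 5 of 10, were at least 2 times higher on chip a, where 6.22% of all genes were, with folds from 2.33 for TULP1 to 2.93 for ROM1. IMPG1, below the minimum, was the only one of the 10 at least 2 times higher on chip b, where 8.69% of all genes were, and most of its reads there lay in the single cell named above. The median fold of chip a over chip b was 2.15, against 1.00 over all genes. Cone-like and rod-like cells made up 23.3% of chip a and 10.2% of chip b, and the summed level of the 9 cone markers was 4045 against 1722 CPM and that of the 10 measured rod markers 756 against 355 CPM. The part of this makeup in the difference was not tested.

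Within cone-like cells the genes differed widely in their day 60 level. At day 60 the 37 cone-like cells already held UNC119 at 801 CPM, RCVRN at 553, AIPL1 at 170, MPP4 at 145, TULP1 at 92.9 and RD3 at 89.6 CPM. RP1 and IMPG1 had no read there, where 3 reads would have been 0.388 CPM. PRPH2 had 24 reads in a single cell at 3.10 CPM, and ROM1 had 22.5 CPM. At day 90 the 96 cone-like cells held PRPH2 at 232 CPM, RP1 at 164, ROM1 at 50.1 and IMPG1 at 37.5 CPM.

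In these cells 4 of the 10 genes, RP1, PRPH2, RD3 and IMPG1, were at least 4 times higher at day 90 than at day 60, against 10.3% of 11571 genes. PRPH2 was 74.7 times higher, and RP1 423 times with its day 60 sum set to 3 reads. RD3 was 4.85 times higher, and the other 6 ranged from 1.51 for UNC119 to 3.15 for MPP4. The median fold was 3.04 over the 10 genes and 1.07 over all genes, to be read beside the 8.45 found over all cells. On both chips of day 200, RP1, PRPH2 and RD3 were at least 4 times above day 60, 3 of 10 against 6.04% of genes.

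From day 90 to day 200, RP1, ROM1 and UNC119 stood higher in the cone-like cells of both chips, and MPP4, TULP1 and IMPG1 lower. The fall was small for TULP1, at 0.922 (a) and 0.826 (b) times day 90. PRPH2 and RCVRN were 1.51 and 2.52 times day 90 on chip b but only 1.04 and 1.09 times on chip a. The median cone-like cell held 1095 CPM of RCVRN at day 90 and 858 on chip a, while its PRPH2 rose from 13.7 to 21.7 CPM. AIPL1 was higher on chip a and lower on chip b, and RD3 was 1.44 times day 90 on chip a and level with it on chip b. RP1 went from 164 CPM to 229 on chip a and 252 on chip b, and PRPH2 from 232 to 241 and 350 CPM. AIPL1 went from 499 to 817 CPM on chip a and 402 on chip b. MPP4 went from 456 to 150 CPM on chip a and 355 on chip b. RCVRN went from 1458 to 1594 CPM on chip a and 3671 on chip b.

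**Figure D2:**
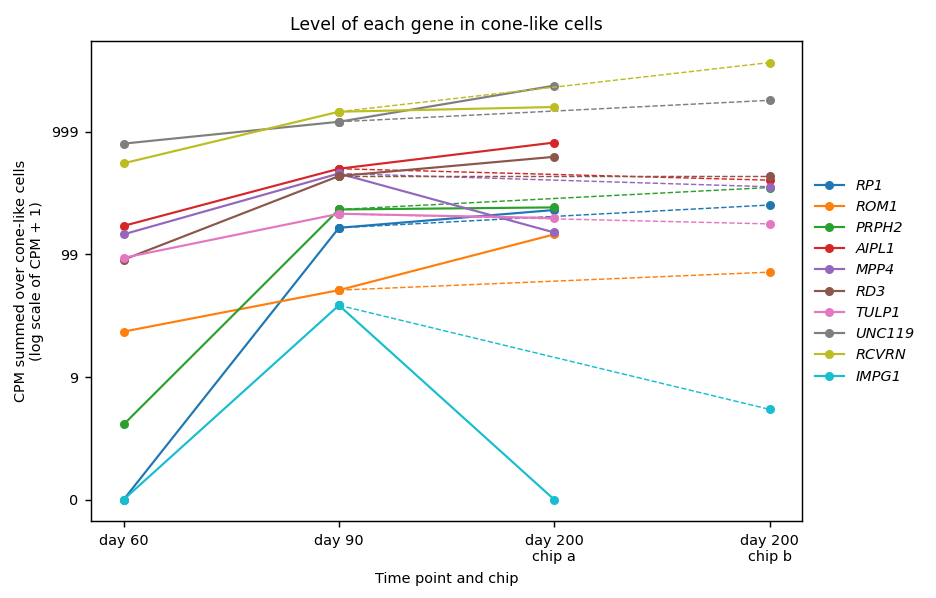
CPM summed over the cone-like cells of each chip (37, 96, 57 and 28 cells), on a log scale of CPM + 1, with 1 line per gene, solid from day 90 to chip a and dashed from day 90 to chip b. RP1 and PRPH2 start at 0 and 3.10 CPM at day 60 and stand at 164 and 232 CPM at day 90, while UNC119 and RCVRN start at 801 and 553 CPM.

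Cone-like cells were uneven among themselves. The median cone-like cell held no RP1 and no ROM1 read at day 90 and on chip a, while single cells reached 1549 CPM of RP1 at day 90 and 4743 CPM on chip a. For PRPH2 the median cell held 13.7 CPM at day 90, 21.7 on chip a but 202 on chip b. UNC119 was read in all 96 cone-like cells of day 90, with quartiles of 519 and 1687 CPM around the median.

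Rod-like cells carried a different balance. At least 2 times the cone-like level on both day 200 chips was found for RP1, ROM1 and RCVRN, 3 of 10, against 10.0% of 11217 genes tested in these classes. The opposite, at least 2 times higher in cone-like cells on both chips, was found for 0 of 10 against 12.9% of genes. ROM1 and RP1 were among the study's own markers of its rod cluster, and RCVRN among those of its cone cluster. Those markers were found in these same cells, so that the rod lean of ROM1 and RP1 was known from them. No test was made here, since the chips are too few and classes are made from the same cells. Under 5 other clustering settings no rod-like cluster could be named, and the ratios rest on the settings that gave one.

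ROM1 had the widest gap, with 1201 CPM in rod-like against 145 in cone-like cells of chip a (8.30 times) and 916 against 70.7 CPM on chip b (12.9 times). At day 90 the ratio was 9.70. RP1 was 4.72 times higher on chip a, 6.22 times on chip b and 4.79 times at day 90. Its median rod-like cell held 756 CPM (chip a) and 1408 CPM (chip b). RCVRN was 2.51 and 2.49 times higher on the chips and 1.12 times at day 90, and all 37 rod-like cells of day 200 had an RCVRN read without thinning.

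PRPH2, the rim partner of ROM1, differed less, with 594 against 241 CPM on chip a (2.47 times), 624 against 350 CPM on chip b (1.78 times) and a ratio of 1.35 at day 90. AIPL1 lay at 1.18 times on chip a and 2.25 times on chip b, and UNC119 at 1.35 and 1.25 times. For these 3 genes the ratio passed 2 on at most 1 chip.

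MPP4 leaned to cone-like cells, which held 12.0 times the rod-like level at day 90 and 12.2 times on chip b, but only 1.31 times on chip a. There 1 rod-like cell reached 1580 CPM, and the median cell held none in either class. Without thinning, rod-like cells with an MPP4 read made up 26.9% of their class on chip a, against 35.1% for the cone-like class. The rod-like level of chip b rests on 66 reads, all from 1 of its 11 rod-like cells. RD3 was 2.50 times and TULP1 2.36 times higher in cone-like cells at day 90. On chip a these ratios were 1.63 and 1.69, and on chip b the classes were near equal for both.

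**Figure D3:**
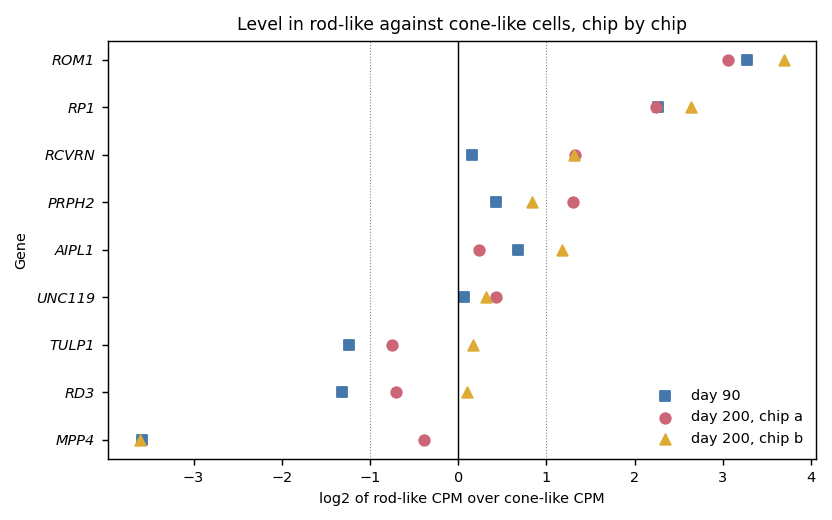
The log2 ratio of rod-like over cone-like CPM for 9 genes at day 90 (squares), on chip a (circles) and on chip b (triangles), with dotted lines at 2 times either way. ROM1 and RP1 lie right of the dotted line on all 3 chips, and MPP4 lies far left except on chip a. IMPG1 is left out for lack of reads.

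The precursor class held lower levels of all 10 genes than the cone-like cells at day 90. Its 48 cells had AIPL1 at 194 CPM, RD3 at 128, RP1 at 81.4 and PRPH2 at 19.3 CPM. At day 60 its 14 cells had no RP1, PRPH2 or IMPG1 read, while MPP4 stood at 86.5 and TULP1 at 76.3 CPM, with 171 of its 232 reads from 1 cell. RD3 stood at 42.45 CPM at day 60 and at 213 and 225 CPM in the 29 precursor cells of chip a and the 31 of chip b.

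Per kilobase of annotated exon, which allows genes to be compared, RCVRN had the highest level in rod-like cells, with 1553 CPM per kilobase on chip a and 3559 on chip b. ROM1 (607 and 463) and UNC119 (631 and 443) changed places between the chips and are not separated. AIPL1 (242 and 228), PRPH2 (198 and 208), RD3 (109 and 133), RP1 (69.01 and 99.8), TULP1 (40.1 and 67.8) and MPP4 (23.3 and 5.92) followed in the same order on both. Between the other neighbours in this order the values of the 2 chips did not overlap on this scale, and no test was made.

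Most reads of the group lay in photoreceptor-like cells. The median share over the genes read was 79.2% at day 90, 87.5% on chip a without IMPG1, which had no read, and 75.5% on chip b, while these cells held 25.9%, 31.6% and 17.0% of all reads. Over pooled day 200 the median was 83.7%, with TULP1 highest at 89.3%. Other classes had lower levels, a median of 9.09% of the photoreceptor-like CPM at day 90, 6.60% for chip a and 6.41% for chip b over the 9 genes other than IMPG1.

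RCVRN and UNC119 were read outside these classes as well. After thinning, RCVRN had a read in 4.55% of cells of other classes at day 60 (2.94 to 6.70), 39.2% at day 90 (34.9 to 43.7), 28.3% for chip a and 31.2% for chip b, at 10.4, 84.7, 136 and 109 CPM. In cone-like cells the shares were 67.6%, 90.5%, 66.7% and 75.0%. Without thinning the shares in other classes were 9.11%, 52.7%, 61.9% and 45.98%, at median depths of 162231, 158753, 253219 and 217989 reads, against 197891, 191763, 274851 and 228758 in cone-like cells. UNC119 was read in 53.3% to 70.7% of thinned cells of other classes, at 136 to 194 CPM on the 4 chips. At day 60 UNC119 was the only one of the 10 read in most cells, with 62.8% of thinned cells, and RCVRN followed with 9.00%.

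**Figure D4:**
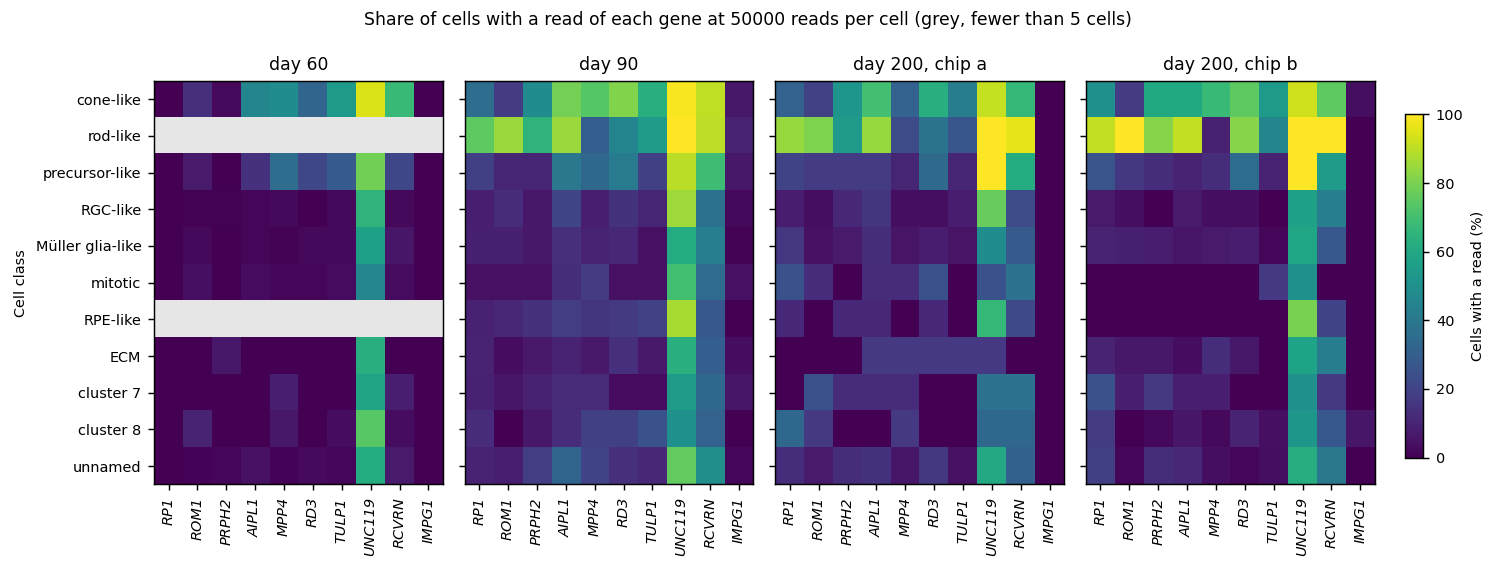
The share of cells with a read of each gene (columns) in each class (rows) and chip (panels), at 50000 reads per cell, from 0 (dark) to 100% (yellow). RP1 and PRPH2 are dark in the cone-like row at day 60, with 0 and 2.70% of cells, and reach 35.8% and 48.4% at day 90, while UNC119 has a read in 46.5% of cells or more in every class at day 60.

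Genes of the group were found together in the same cells. At 50000 reads, at least 3 of the 10 genes were read in 7.09% of cells at day 60 (5.14 to 9.50), 42.1% at day 90 (38.3 to 46.02), 37.6% on chip a (32.6 to 42.9) and 24.7% on chip b (20.4 to 29.3). The median cone-like cell held 4 genes at day 60, 6 at day 90, 5 (chip a) and 6 (chip b) at day 200, and the median rod-like cell 6, 6.5 and 7 on the later chips. The median cell of other classes held 1 on every chip. Still, 1.90%, 26.4%, 17.6% and 14.5% of cells of other classes held at least 3.

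Cells of other classes with at least 5 of the genes numbered 66 of 1574, 49 of them at day 90. Of these 66, 4 were called doublets, and their median cell held 7 of the 9 cone markers against 2 in the rest of those classes. At day 90 they included 12 of 77 RPE-like cells, with a median of 256365 reads against 179499 in the other RPE-like cells. The part of mixed cells in these counts was not tested.

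The genes differed in how broadly they were read at day 90. Among cells in which exactly 1 of the 10 was read, it was UNC119 in 75.0% and RCVRN in 13.6%. In the 58 cells with 7 or more of the genes, UNC119 was read in 100%, AIPL1 in 96.6%, RCVRN in 94.8%, RP1 in 72.4% and ROM1 in 46.6%. Both sets of cells were picked by these same genes, so high shares in the latter follow from the choice. The values describe differences between genes only.

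A row named GFP-Spike took no part in the clustering and had no read at day 60 or day 90. At day 200, without thinning, it was read in 91.2% of cone-like cells of chip a and 89.3% of chip b. The shares were 65.4% and 81.8% in rod-like cells, and 30.7% and 13.2% in other classes. These shares are not matched in depth, since the median cell held 251929 reads on chip a and 212201 on chip b. By number of the 10 genes read, cells with 1 or 2 held it in 35.3% on chip a and 14.8% on chip b, and cells with 3 or 4 in 60.8% on chip a and in 26 of 52 cases on chip b. What the row measures is not stated, and it is described only by its values.

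**Figure D5:**
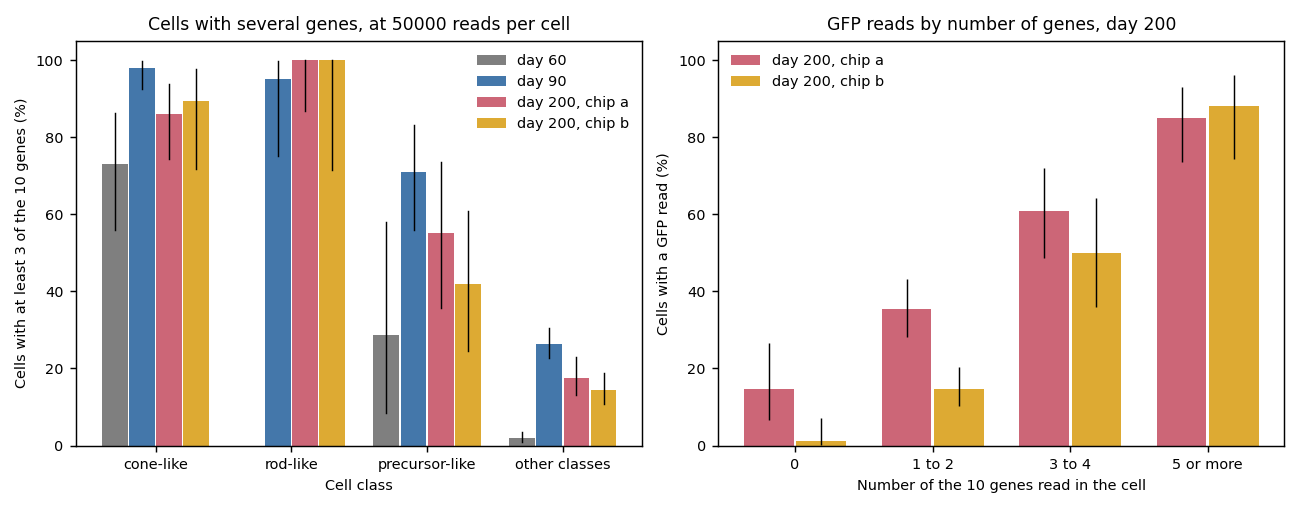
Left, the share of cells with at least 3 of the 10 genes by class and chip, with exact binomial 95% intervals. Right, the share of day 200 cells with a read of the row named GFP-Spike by number of the 10 genes in the cell. The right bars go from 14.5% and 1.30% of cells with 0 genes to 85.0% and 88.1% of cells with 5 or more on chips a and b.

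By likeness across cells the genes went with rod, cone or shared partners. Pearson correlations of log-normalized values were taken over the 356 cells of chip a and the 381 of chip b, which share their chip and differ in depth, among 10570 genes, and are given as descriptions. RP1 was most like NRL (0.53 and 0.53), NR2E3 (0.48 and 0.48) and GNAT1 (0.46 and 0.59), a rod transcription factor, a rod nuclear receptor and rod transducin. ROM1 was most like GNAT1 (0.58 and 0.67), NRL (0.58 and 0.61) and PDE6G (0.44 and 0.51).

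PRPH2 and AIPL1 were both most like PDC, which encodes phosducin, with 0.53 and 0.62 for PRPH2 and 0.58 and 0.66 for AIPL1, followed by GNB3 and IMPG2. UNC119 was most like GNB3 (0.65 and 0.68) and RCVRN most like PDC (0.61 and 0.75). RD3 and TULP1 were most like PDE6H, the inhibitory subunit of the cone phosphodiesterase, with 0.45 and 0.52 for RD3 and 0.43 and 0.55 for TULP1. MPP4 had the weakest leading partner, FAM107A at 0.35 and 0.38. The median over the 36 pairs among the 9 genes read on both chips was 0.31 on chip a and 0.48 on chip b.

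Other genes of the outer segment moved with the group in part. Without a minimum level, 2.44% of all genes read were at least 4 times higher on both day 200 chips than at day 60. Of 11 measured disc, cilium cap and matrix genes 6 were, and the median fold over day 60 was 4.69. They were CDHR1 (10.3 times), C2orf71 (13.4), RP1L1 (30.8), EYS (4.46), ABCA4 (9.51) and RDH12, which had no read at day 60. CRB1 was the highest of the list at day 200, with 243 CPM, at 2.33 times day 60.

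Of 13 measured calcium and cyclic GMP genes 7 were at least 4 times higher on both chips, 5 of them among the 7 genes with a mean of at least 5 CPM, and the median over the 13 was 9.43. GUCA1A, a guanylate cyclase activator, was the highest at 281 CPM, and SLC24A2, an exchanger, had 29.1 times its day 60 level. CNGB3 had no read at day 60 and 25.0 CPM at day 200. Among the 14 connecting cilium and trafficking genes only RPGRIP1 passed, at 7.37 times, and the median was 1.21. CEP290, the highest at 262 CPM, was at 0.998 times day 60, and RP2 at 0.622 times was the lowest.

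The binding partners named for single genes differed, and each list was short. Of genes with a mean of at least 5 CPM 2.78% passed on both chips, and 2.44% without a minimum. For AIPL1, the phosphodiesterase subunits PDE6A, PDE6G, PDE6C and PDE6H, 4 of 5, passed on both chips, while PDE6B was at 2.05 times. PDE6A had a mean of 2.76 CPM, and 3 of the 4 subunits with at least 5 CPM passed. For UNC119, GNAT1 went from no read to 119 CPM, and its release factor ARL3 stood at 1.39 times. For MPP4 none of 5 measured partners passed, which is near that share, and the median was 0.906. CNGB1, the channel subunit listed with ROM1 and PRPH2, passed at 14.4 times. Of the relatives RP1L1 passed, DCX, which shares the doublecortin domain of RP1, was at 0.272 times, and UNC119B (1.48), IMPG2 (3.94), TUB (1.78), TULP3 (0.740), TULP4 (1.5) and DCLK1 (1.16) did not.

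Of 9 photoreceptor regulators NRL (22.9 times) and NR2E3 (24.9 times) passed on both chips. OTX2 was the highest at 344 CPM, at 3.43 times day 60, and THRB the lowest at 0.682 times. CRX itself was counted at 4.74 to 10.8 CPM on the 4 chips, with 1.13 times its day 60 level at day 200, beside the fold of 13.5 for the 10 genes.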

How the data were processed

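Single cells of organoids were captured on Fluidigm C1 chips, and full-length cDNA libraries were made with SMART-Seq v4 and Nextera XT. Per the labels and the study's methods, the authors trimmed reads with Trimmomatic 0.33, aligned them with STAR 2.4.0 to GRCh38 with GENCODE annotation and counted them per gene with HTSeq 0.6; whether strand was used is not given in the sources used here. The deposited values are raw read counts per gene and cell for 1976 cells, without molecular identifiers. The row GFP-Spike (0.00479% of all reads) was left out of totals. Of 40 barcode sequences 38 occurred on all 4 chips, since they are reused by column.

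Counts were summed per chip, column and class and given as CPM. Cells were thinned to 50000 reads for shares, which left out 6 cells of day 90. Cells were clustered in Seurat 5.3.0 (R 4.3.3) with integration over time points, and clusters were named where at least 3 listed markers were 2 times higher, after adding 5 CPM, and read in at least 20% of cells. Doublets were called with Scrublet (23 cells) and kept. Shares of all genes called were taken over genes with at least 5 CPM on average unless said otherwise, and a level of 0 was set to 3 reads. All 10 genes are named; other genes come from lists of partners and relatives, and likeness was limited to genes in at least 5% of cells. Gene positions and exon lengths are from GENCODE 44. No test between time points was made. The genes and lists were chosen with earlier results of these data known. Scripts ran in Python 3.11.15 with numpy 2.4.6, scipy 1.17.1, pandas 2.3.3 and scanpy 1.11.5, and were tested on simulated data. Alternatives in normalization, thinning, cell filters and clustering were tried.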

Additional observations from a re-analysis of the deposited data

Results flagged for a closer look

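A signal appeared in a row of the count table that is none of the 10 genes and was left out of the clustering and the totals. The row named GFP-Spike held 15976 reads on chip a of day 200 (165 CPM, in 163 of 356 cells and in 20 of 20 columns) and 3515 reads on chip b (39.4 CPM, in 95 of 381 cells and in 19 of 20 columns). It held 0 reads at day 60 and at day 90. Of its reads, 86.0% on chip a and 80.7% on chip b lay in photoreceptor-like cells, which held 31.6% and 17.0% of all reads. Cells of other classes with at least 5 of the 10 genes had a read of the row in 3 of 6 cases on chip a and 8 of 10 on chip b.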

How the results depend on the processing

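The count of 9 genes at least 4 times higher at day 90 came out as 9 under all 6 alternatives. For day 200 the count of 6 became 7 without chip a and 8 without chip b, since a single chip then has to pass, and ran from 4 to 7 under the other alternatives. With 1 chip left out, the count of genes 2 times higher in rod-like cells went from 3 to 4 on either chip alone, the share of cells with at least 3 of the genes ranged from 24.7% to 37.6%, and the median share of reads in photoreceptor-like cells from 75.5% with the classes as named to 87.5%, against 81.5% when cells were clustered again without chip a. Classing cells by their nearest marker list left 2 genes at least 2 times higher in rod-like cells. IMPG1 had no read at day 60, so that its folds rest on the 3 reads set there, 67.4 over both chips and 140.4 without chip a. Without chip b it had no read to give a fold. The share of cells with at least 3 genes depended on depth and on the number asked for. Without thinning it was 10.2% at day 60, 53.3% at day 90 and 47.6% at day 200. Asking for 2 genes gave 14.5%, 59.7% and 51.02%, and asking for 5 gave 2.08%, 24.4% and 13.8%. Thinning to a lower depth gave 34.8% at day 90, and 5 reads per gene without thinning gave 33.6%. RP1 in rod-like over cone-like cells, 5.42 as the geometric mean of both chips, was 9.94 when the 10 genes were kept in the clustering, PRPH2, at 2.10, was 1.32 when cells were classed by their nearest marker list, and MPP4, at 0.251, was 0.0537 with 30 dimensions. No rod cluster could be named under 5 settings (resolution 0.4, 10 dimensions, no integration, and without chip a or b), so the rod values rest on the remaining ones. Leaving out the top cell, the rod ratios and read shares of each chip alone and part of the alternatives for the counts of genes were chosen after seeing the data. No paired analysis was possible because chips and columns of different days share no culture in the labels and no result comes from a test.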
